A study of Mus musculus with 2 samples.

Results

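The genes described here are 36 genes of the NRF2 pathway and of the enzymes that remove oxidants: NRF2 itself and its partners, its classical target enzymes, the glutathione and thioredoxin systems, peroxiredoxins, superoxide dismutases, catalase and metallothioneins. They were chosen by name from known function, with no measured value in the rule, although earlier results of these data were known. All 36 were found among the 17270 named genes of the deposited table. Messenger RNA was profiled by bulk RNA sequencing in macrophages grown from the bone marrow of Ninj1-/- (knockout) and Ninj1+/+ (wild-type) mice aged 6 weeks. Marrow cells of both genotypes were grown for 7 days with the growth factor M-CSF and then stimulated with 500 ng/ml lipopolysaccharide together with 20 ng/ml interferon-gamma, a combination that makes classically activated macrophages. All groups therefore carried the same activation, and unstimulated macrophages were not analysed here. Ninj1 encodes a membrane protein that takes part in cell adhesion and in the rupture of dying cells. The labels do not say how the deletion was made, in which cells it acts or whether animals were pooled. The stated purpose was to relate Ninj1 deficiency to macrophage activation through inflammation-related genes.

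Each genotype is registered as 1 sample, and the table holds 2 columns for each, with 46798381 to 62684262 reads assigned to genes per column. The columns of a genotype differed by more than counting noise, with a mean chi-square per gene of 12.4 in the knockout and 18.8 in wild type. Counting noise alone gives about 1 if reads are independent. Whether the columns came from separate mice or cultures is not stated, so p-values reflect the spread between columns alone, and that spread may be technical. Ninj1 averaged 3802 ± 401 normalized counts in the knockout and 30004 ± 1632 in wild type (SD, n = 2 columns each), 12.7% of the wild-type level, in the direction of the labels. Macrophage markers were abundant in every column: Adgre1, a defining surface marker of mouse macrophages, stood at 242636 and 235028 normalized counts in the knockout columns and at 234274 and 240029 in the wild-type columns. Of the 4 columns, wild-type column 1 stood apart for the 36 genes. It held the lowest value of 23 of them (63.9%), against 29.9% of all 12872 genes kept for testing.

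NRF2, encoded by Nfe2l2, is a transcription factor that is made continuously and degraded through its partner KEAP1. Oxidants and electrophiles modify cysteines of KEAP1, NRF2 then accumulates, pairs with a small MAF protein and binds antioxidant response elements in the control regions of its targets, where BACH1 competes as a repressor. The targets make and recycle glutathione and thioredoxin, remove peroxides and break down heme. In activated macrophages these enzymes operate beside the production of superoxide and nitric oxide. NRF2 activity is regulated largely at the protein level, which messenger RNA does not report.

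Of the 36 genes, Txnip rose in the knockout and 35 did not pass the test, and none fell. Txnip encodes thioredoxin-interacting protein, which binds thioredoxin and restrains glucose uptake, so it acts against the thioredoxin system. Over all 12872 genes tested, 1.67% were called higher and 1.24% lower, and 2.91% either way, so 1 call among 36 genes (2.78%) lies near the background. A call means an adjusted p below 0.05 in limma's moderated test on log2(normalized count + 1), the p-values being adjusted by Benjamini-Hochberg over every gene tested. Unadjusted p-values under 0.05 occurred for 8 of the 36 genes (22.2%), 7 higher and 1 lower, against 19.8% of all genes, 10.3% higher and 9.45% lower. Knockout and wild-type columns did not overlap for 16 of the 36 (44.4%), 14 higher and 2 lower, against 51.1% of all genes, 25.5% higher and 25.6% lower. The median log2 ratio of the 36 genes, knockout minus wild type, was 0.08, against -0.0034 over all genes tested, with 24 ratios above 0 and 12 below. Without wild-type column 1 the median was 0.0094 and 18 ratios were above 0; without wild-type column 2 it was 0.18 and 27 were above 0. It was 0.081 without knockout column 1 and 0.099 without knockout column 2. Since wild-type column 1 was the lowest for most of the 36 genes, leaving it out had to lower the median.

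**Figure D1:**
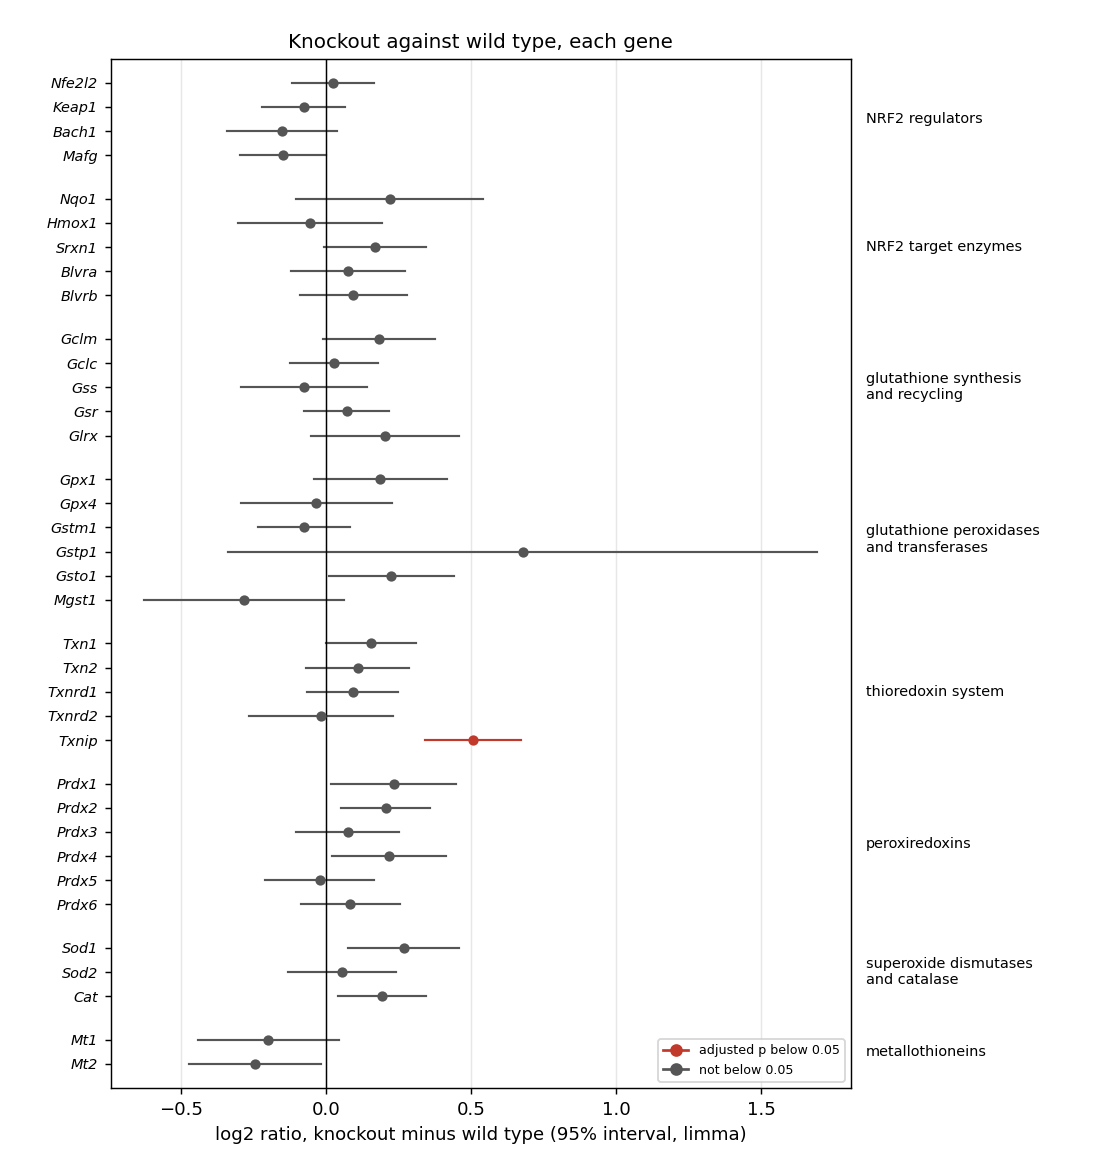
Log2 ratio of knockout to wild type for each of the 36 genes (x axis), with the 95% interval from limma as a line and genes grouped by role from top to bottom (n = 2 columns per genotype). Txnip, in red at 0.51, is the gene with an adjusted p below 0.05; the interval of Gstp1, which has 16 to 39 reads per column, is the widest of the 36.

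The thioredoxin system held the 1 call. Txnip (Entrez 56338; chromosome 3, 96557957 to 96561857) had 4282 and 4334 normalized counts in the knockout columns and 3161 and 2906 in the wild-type columns. Both knockout columns lay above both wild-type columns, and the gap between genotypes was larger than the gap within either. The means were 4308 ± 36.9 in the knockout and 3034 ± 180 in wild type (SD, n = 2 columns each), a 1.42-fold rise with a 95% interval of 1.27 to 1.60 (log2 ratio 0.51, SE 0.08, limma adjusted p = 0.00565). Txnip ranked 27 among the 12872 genes by p-value. The call also passed edgeR's quasi-likelihood test (adjusted p = 0.00682) and DESeq2 (adjusted p = 2.08e-05) on the recovered reads. By edgeR 2.94% of the 12872 genes were called. By DESeq2 the share was 6.38% of the 8380 genes to which it gave an adjusted p. Txnip alone of the 36 genes was called by each. Without knockout column 1 the ratio was 0.52 and the limma adjusted p was 0.0755, a setting in which 0.179% of all genes were called. It held without wild-type column 1 (0.57, limma adjusted p = 0.0293), without wild-type column 2 (0.45, limma adjusted p = 0.019) and without knockout column 2 (0.50, limma adjusted p = 0.0357), where 0.163%, 4.82% and 1.3% of all genes were called. In the remaining settings Txnip was called beside 2.76% of all genes with a pseudocount of 0.1, 2.95% with centring, 2.77% with TMM scaling, 1.33% with no filter and 3.21% with at least 100 reads. An annotated gene on the other strand, Gm15441, overlaps Txnip exons and had 2 and 4 reads in the knockout columns and 6 and 0 in the wild-type columns, so few reads were counted to it.

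The other thioredoxin genes did not pass. Txn1 encodes cytosolic thioredoxin, which reduces disulfides in proteins, and averaged 46520 ± 523 normalized counts in the knockout and 41860 ± 2674 in wild type (SD, n = 2 columns each; log2 ratio 0.15, limma adjusted p = 0.259). Its mitochondrial counterpart Txn2 averaged 7542 ± 94.3 in the knockout and 7020 ± 879 in wild type, with a log2 ratio of 0.11. Txnrd1, the cytosolic thioredoxin reductase and a selenoprotein, averaged 67600 ± 2317 in the knockout and 63444 ± 1904 in wild type, with a log2 ratio of 0.09. Txnrd2, the mitochondrial reductase, averaged 891 ± 85.7 in the knockout and 900 ± 39.3 in wild type, with a log2 ratio of -0.02. The ratio of Txnip thus lay outside the 95% interval of each of these genes' ratios, the highest upper bound being 0.31 for Txn1; the difference between Txnip and the other genes was not itself tested.

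**Figure D2:**
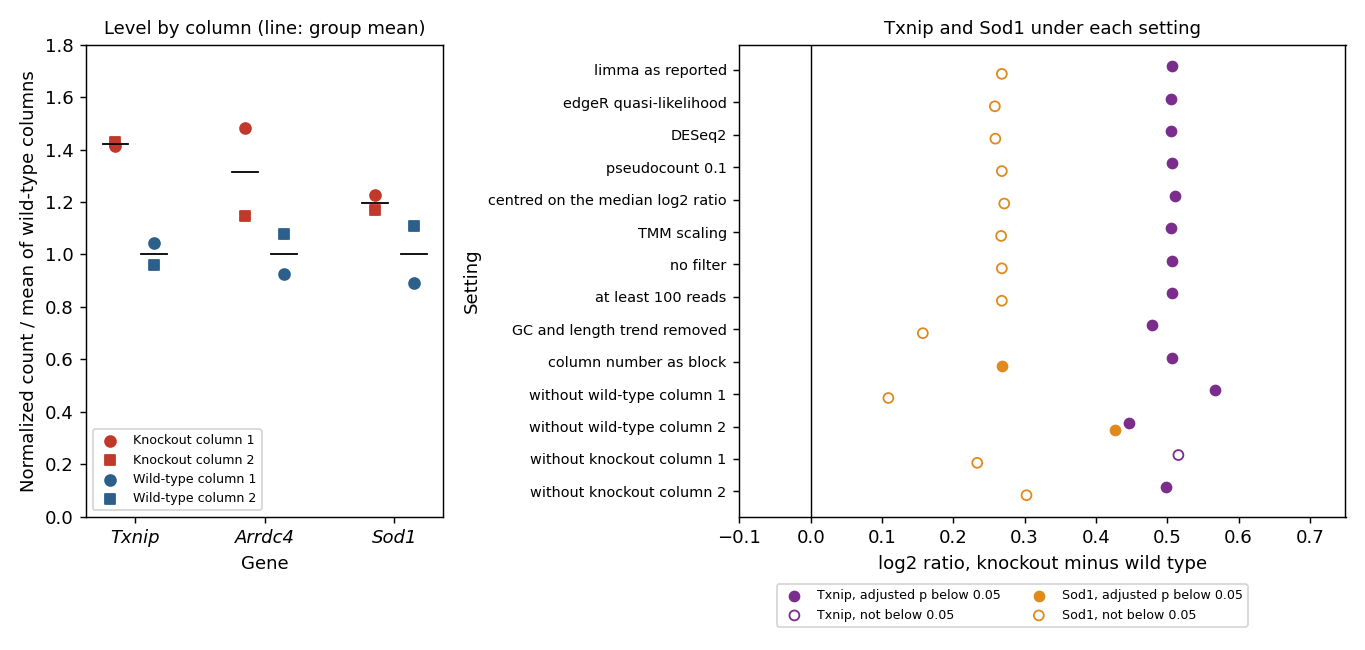
Left, normalized count of Txnip, Arrdc4 and Sod1 in each column divided by the mean of the 2 wild-type columns, with a line at each group mean. Right, log2 ratio of Txnip and Sod1 in limma as reported and in 13 other settings (filled where the adjusted p was below 0.05). Txnip keeps a ratio between 0.45 and 0.57 and is called in 12 of the 13; Sod1 ranges from 0.11 to 0.43 and is called in 2.

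Txnip is known as a target of the glucose-responsive factors MondoA (Mlxip) and ChREBP (Mlxipl), which bind with Mlx at a carbohydrate response element. The promoter window of Txnip, from 250 bases before to 50 after the annotated start, is printed because Txnip is the gene that changed. It comes from RefSeq, build GRCm38.p6, plus strand, chr3:96557707-96558006, and its capitals mark the only match to that element, sought after the values were seen.
Txnip: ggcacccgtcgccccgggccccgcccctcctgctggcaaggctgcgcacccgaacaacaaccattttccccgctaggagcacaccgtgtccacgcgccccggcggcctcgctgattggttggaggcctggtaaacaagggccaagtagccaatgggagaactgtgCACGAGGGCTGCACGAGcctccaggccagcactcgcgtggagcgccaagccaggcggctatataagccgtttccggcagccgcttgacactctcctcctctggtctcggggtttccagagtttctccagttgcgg
The pattern searched, on both strands, was a pair of CACGNG half-sites with 5 bases between them. Its match began 85 bases before the start and ended 69 bases before it. Among 32851 windows of this length in RefSeq, 16 (0.05%) held the pattern, and among the 32 members with a window Txnip alone did. A match is a description of the sequence and does not show binding.

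Among 9 genes around Txnip (MondoA and its relatives, other arrestin-domain genes and glucose uptake genes), 8 had enough reads and none was called. An unadjusted limma p under 0.05 occurred for 1 of the 8, against 19.8% of all genes tested. The gene was Arrdc4, which encodes an arrestin-domain relative of TXNIP and is another known MondoA target. It had 2150 and 1659 normalized counts in the knockout columns and 1339 and 1560 in the wild-type columns. The knockout columns lay above the wild-type columns, by a small margin for knockout column 2 (log2 ratio 0.39, SE 0.12, limma adjusted p = 0.101). Over the 13 other settings the log2 ratio of Arrdc4 ran from 0.20 to 0.57, the latter without knockout column 2. edgeR and DESeq2 called none of the 8. Mlxip (log2 ratio -0.01), Mlx (0.0031), the glucose transporter Slc2a1 (-0.14) and hexokinase Hk2 (-0.04) did not pass. Mlxipl, the gene of ChREBP, had at most 2 reads in a column and was left out of the fit. The part of MondoA or ChREBP in the Txnip result was not tested.

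Among the 4 NRF2 regulators none was called, and 3 of the 4 ratios were below 0. Nfe2l2 had 23130 and 22226 normalized counts in the knockout columns and 22432 and 22158 in the wild-type columns. Its columns overlapped, with a log2 ratio of 0.02 and a 95% interval of -0.12 to 0.17 (limma adjusted p = 0.879). Keap1, the adaptor that hands NRF2 to degradation, had 10776 and 10575 in the knockout columns and 11391 and 11135 in the wild-type columns. Its knockout columns lay below the wild-type columns by a margin that did not pass (log2 ratio -0.08, limma adjusted p = 0.554). Mafg, a small MAF partner, averaged 5534 ± 52.6 in the knockout and 6136 ± 98.3 in wild type (SD, n = 2 columns each; log2 ratio -0.15, limma adjusted p = 0.254), and its columns did not overlap. Bach1, the repressor, averaged 15341 ± 950 in the knockout and 17113 ± 2482 in wild type (log2 ratio -0.15, limma adjusted p = 0.367). Wild-type column 1 was the highest column for Keap1, Mafg and Bach1. With wild-type column 2 left out, Bach1 was called lower (-0.30, limma adjusted p = 0.0494), and in that setting 4.82% of all genes were called.

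**Figure D3:**
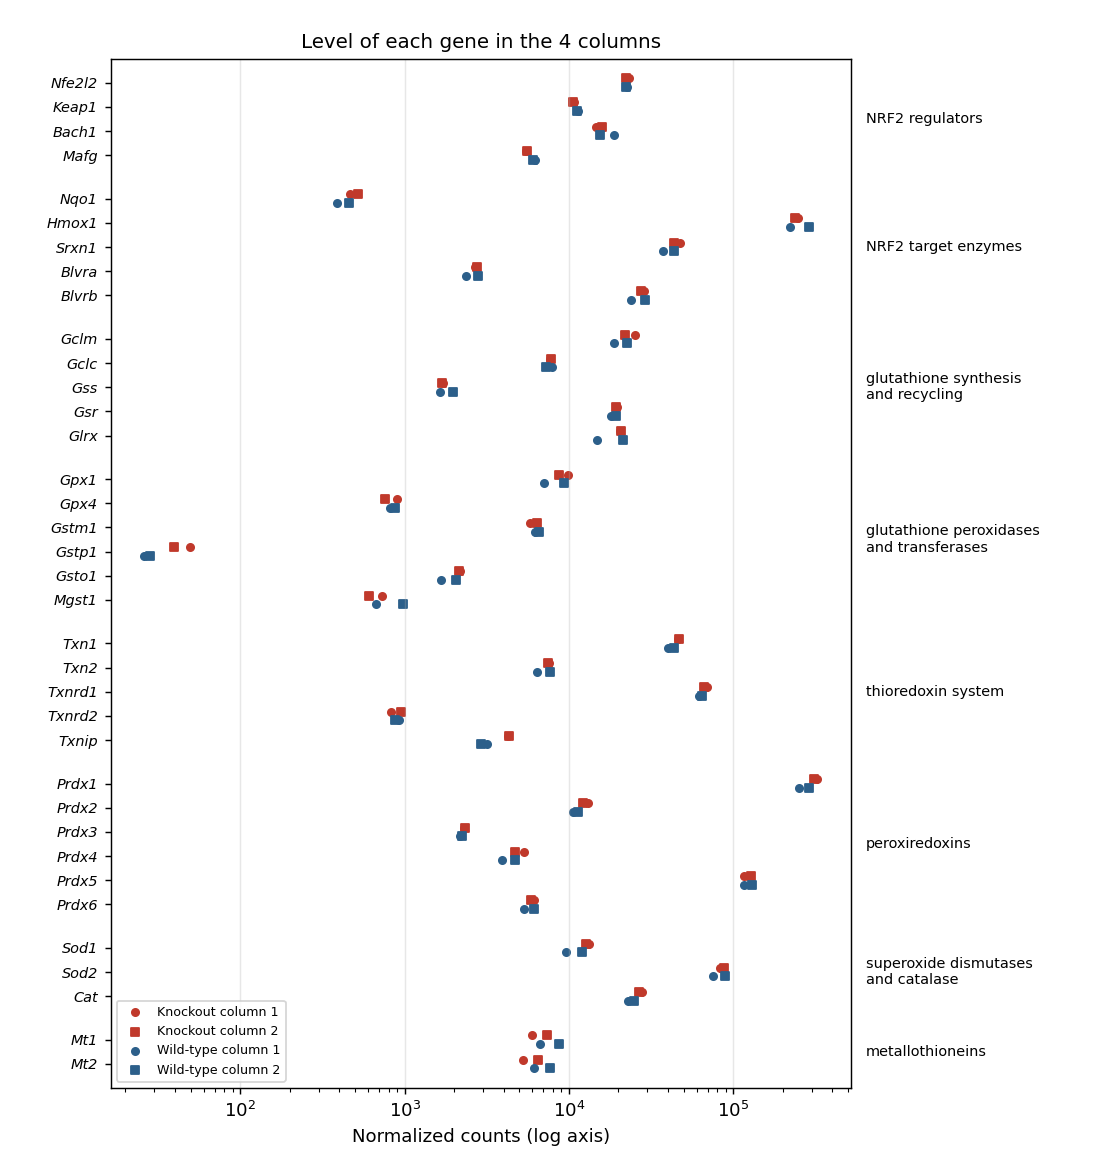
Normalized counts of each gene (x axis, log scale) in the knockout columns, drawn above in red, and the wild-type columns, drawn below in blue, with genes grouped by role. Levels span from 26.0 normalized counts for Gstp1 to 324434 for Prdx1, and red and blue points lie close together for most genes, with Txnip the gene that passed the test.

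The classical NRF2 target enzymes did not pass either. Nqo1, a quinone reductase widely used as an NRF2 readout, was low, with 466 and 520 normalized counts in the knockout columns and 388 and 461 in the wild-type columns. The knockout columns lay above the wild-type columns by a few counts at the nearest, with a log2 ratio of 0.22 and a 95% interval of -0.10 to 0.54 (limma adjusted p = 0.454). Hmox1, heme oxygenase 1, averaged 243899 ± 7077 in the knockout and 255831 ± 49492 in wild type (SD, n = 2 columns each; log2 ratio -0.06, limma adjusted p = 0.834). The 2 wild-type columns of Hmox1 were the lowest and the highest of the 4 columns, with the knockout columns between them. Srxn1, sulfiredoxin, which repairs over-oxidised peroxiredoxins, averaged 45445 ± 2546 in the knockout and 40530 ± 4400 in wild type (log2 ratio 0.17, limma adjusted p = 0.276). Blvra and Blvrb encode biliverdin reductases, which act after heme oxygenase, and had log2 ratios of 0.08 and 0.09. Wild-type column 1 was the lowest column for all 5 of these genes.

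Per kilobase of transcript, the scale on which levels of different genes can be compared, Hmox1 was the highest of the 36 genes, with 155449 normalized counts per kilobase in the knockout and 163054 in wild type. Prdx1 followed with 138145 in the knockout and 117828 in wild type, and Prdx5 with 96436 in the knockout and 97968 in wild type. Txn1 and Blvrb came next in both genotypes. At the low end stood Nqo1, with 318 in the knockout and 273 in wild type, and Gstp1, with 53.9 in the knockout and 33.0 in wild type. The order of the top 5 was the same in both genotypes, while the next ranks were taken by Sod1 and Txnrd1 in different order.

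Antioxidant response element cores are printed to show where the annotated promoters of the members hold them. The pattern TGACNNNGC was sought on both strands of the same 300-base windows, which existed for 32 of the 36 genes. It was found in 10 of those 32 genes (31.2%), against 13.99% of all genes with a window. By windows the shares were 24.4% of 41 member windows and 12.39% of all 32851. Hmox1, Gclc, Gsr and Prdx6 had no window and were not searched. Each stretch below carries 10 bases on either side of the match, reads 5′ to 3′ on the strand that holds TGAC, and has the match in capitals.
Nfe2l2: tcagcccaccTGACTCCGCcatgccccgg
Mafg: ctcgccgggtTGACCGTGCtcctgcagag
Srxn1: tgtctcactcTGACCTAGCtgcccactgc
Blvra: ggcggagcctTGACCGAGCaattcccgtg
Gclm: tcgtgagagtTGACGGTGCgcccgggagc
Mgst1: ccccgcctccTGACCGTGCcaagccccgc
Txnrd1: cgtgtcagaaTGACAAAGCaaaaatccag
Prdx1: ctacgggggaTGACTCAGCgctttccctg
Sod1: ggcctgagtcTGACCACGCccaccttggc
Mt2: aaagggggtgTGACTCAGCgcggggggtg
The positions in GRCm38.p6 were chr2:75704885-75704913 minus strand for Nfe2l2, chr11:120633751-120633779 plus strand for Mafg, chr2:152105542-152105570 minus strand for Srxn1 and chr2:127070598-127070626 minus strand for Blvra. They were chr3:122245413-122245441 minus strand for Gclm, chr6:138140461-138140489 minus strand for Mgst1 and chr10:82859104-82859132 minus strand for Txnrd1. They were chr4:116685456-116685484 minus strand for Prdx1, chr16:90220696-90220724 minus strand for Sod1 and chr8:94172529-94172557 plus strand for Mt2. The matches lay between 240 bases before the annotated start, in Nfe2l2, and 28 bases after it, in Srxn1. Prdx1 and Mt2 held the same 9 bases, TGACTCAGC. None of these 10 genes was called, and their log2 ratios ran from -0.28 for Mgst1 to 0.27 for Sod1. The Txnip window held no match. Elements farther from the start lie outside these windows, so a gene without a match here may hold one elsewhere.

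Glutathione synthesis and recycling genes did not pass. Gclm and Gclc encode the subunits of glutamate-cysteine ligase, the rate-limiting enzyme of glutathione synthesis. Gclm averaged 23467 ± 2340 in the knockout and 20711 ± 2608 in wild type (SD, n = 2 columns each; log2 ratio 0.18, limma adjusted p = 0.279), whereas Gclc averaged 7732 ± 105 in the knockout and 7586 ± 438 in wild type (log2 ratio 0.03, limma adjusted p = 0.865). Gss, glutathione synthetase, had a log2 ratio of -0.08, and Gsr, glutathione reductase, of 0.07. Glrx, glutaredoxin, averaged 20516 ± 160 in the knockout and 18127 ± 4645 in wild type (log2 ratio 0.20, limma adjusted p = 0.367). Its knockout columns differed little from each other, while wild-type column 2 was 1.44-fold above wild-type column 1. The sign of the Glrx ratio turned on that gap: it was -0.06 without wild-type column 1 and 0.47, called (limma adjusted p = 0.0109), without wild-type column 2.

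Glutathione peroxidases and transferases went both ways, with none called. Gsto1, a glutathione transferase that also reduces dehydroascorbate, had 2186 and 2140 normalized counts in the knockout columns and 1673 and 2045 in the wild-type columns. Its columns did not overlap, and its log2 ratio was 0.23 (limma adjusted p = 0.233). Mgst1, the microsomal transferase, had 726 and 607 in the knockout columns and 672 and 972 in the wild-type columns. These columns overlapped, with wild-type column 2 highest (log2 ratio -0.28, limma adjusted p = 0.355). Gpx1, the main cytosolic glutathione peroxidase, averaged 9228 ± 822 in the knockout and 8170 ± 1627 in wild type (SD, n = 2 columns each; log2 ratio 0.19, limma adjusted p = 0.356). It too changed sign with the wild-type columns, with -0.02 without column 1 and 0.39, called (limma adjusted p = 0.0359), without column 2. Gpx4, which protects membranes from lipid peroxidation, had a log2 ratio of -0.03, and Gstm1 of -0.08. Gstp1 had 49.2 and 39.3 normalized counts in the knockout columns and 26.0 and 28.3 in the wild-type columns. Its knockout columns lay higher, but with 16 to 39 reads per column the 95% interval of its log2 ratio ran from -0.34 to 1.69 (limma adjusted p = 0.462).

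Some of these genes share sequence with other genes, so their counts are uncertain. Of the 50-base stretches in their GENCODE transcripts, 62.3% for Gstp1 also occur in Gstp2 or the pseudogene Gstp-ps, and 41.6% for Gpx4 occur in other annotated genes such as Gpx4-ps2. The share was 23.1% for Gstm1 and Sod1, 10.9% for Prdx1 and 8.7% for Prdx2, and 2.5% or less for every other member. How reads in such stretches were assigned is not given in the sources used here. Exons of Prdx2, Prdx5, Gss, Txnrd2, Keap1, Mt2, Gclm and Txnip overlap genes on the other strand. Although the library kit was directional, whether the counting used strand is not stated. On the same strand, exons of Mafg overlap Sirt7 and exons of Gclm overlap Gm6061, which counting by strand cannot separate.

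Peroxiredoxins, which reduce hydrogen peroxide with a reactive cysteine, held 3 of the 8 unadjusted p-values under 0.05, and none was called. Prdx1, an abundant cytosolic enzyme, had 324434 and 309374 normalized counts in the knockout columns and 251065 and 289527 in the wild-type columns. Prdx2 had 13130 and 12126 in the knockout columns and 10546 and 11343 in the wild-type columns. Prdx4, the secretory-pathway enzyme, had 5300 and 4730 in the knockout columns and 3938 and 4705 in the wild-type columns. For all 3 the columns did not overlap, but the knockout margin over wild-type column 2 was smaller than that over wild-type column 1. Their log2 ratios were 0.23 for Prdx1, 0.21 for Prdx2 and 0.22 for Prdx4, with limma adjusted p-values of 0.215, 0.131 and 0.203 in that order. Prdx3, the mitochondrial enzyme, had a log2 ratio of 0.07, Prdx6 of 0.08 and Prdx5 of -0.02.

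Superoxide dismutases turn superoxide into hydrogen peroxide, and catalase breaks hydrogen peroxide down. Sod1, the cytosolic copper-zinc enzyme, had 13300 and 12678 normalized counts in the knockout columns and 9657 and 12040 in the wild-type columns. The knockout columns lay above the wild-type columns (log2 ratio 0.27, SE 0.09, limma adjusted p = 0.119), which was the lowest adjusted p after that of Txnip. Sod1 was called with the column number as a block, the setting in which 4.68% of all genes were called, and without wild-type column 2 (0.43, limma adjusted p = 0.0143), and its ratio was 0.11 without wild-type column 1. Cat, catalase, had 27719 and 26722 in the knockout columns and 22745 and 24959 in the wild-type columns. These also did not overlap (log2 ratio 0.19, limma adjusted p = 0.152). Sod2, the mitochondrial enzyme that inflammatory signals induce, averaged 85237 ± 3820 in the knockout and 82316 ± 9385 in wild type (SD, n = 2 columns each; log2 ratio 0.05, limma adjusted p = 0.774).

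Metallothioneins bind zinc and copper through their cysteines and also scavenge oxidants. Mt1 had 5970 and 7370 normalized counts in the knockout columns and 6669 and 8694 in the wild-type columns. Mt2 had 5256 and 6448 in the knockout columns and 6171 and 7711 in the wild-type columns. The columns overlapped for both genes, and in both genotypes column 1 was the lower one. The log2 ratios were -0.20 for Mt1 and -0.24 for Mt2 (limma adjusted p = 0.356 and 0.221). Mt1 and Mt2 are neighbouring genes on chromosome 8 and moved alike from column to column.

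**Figure D4:**
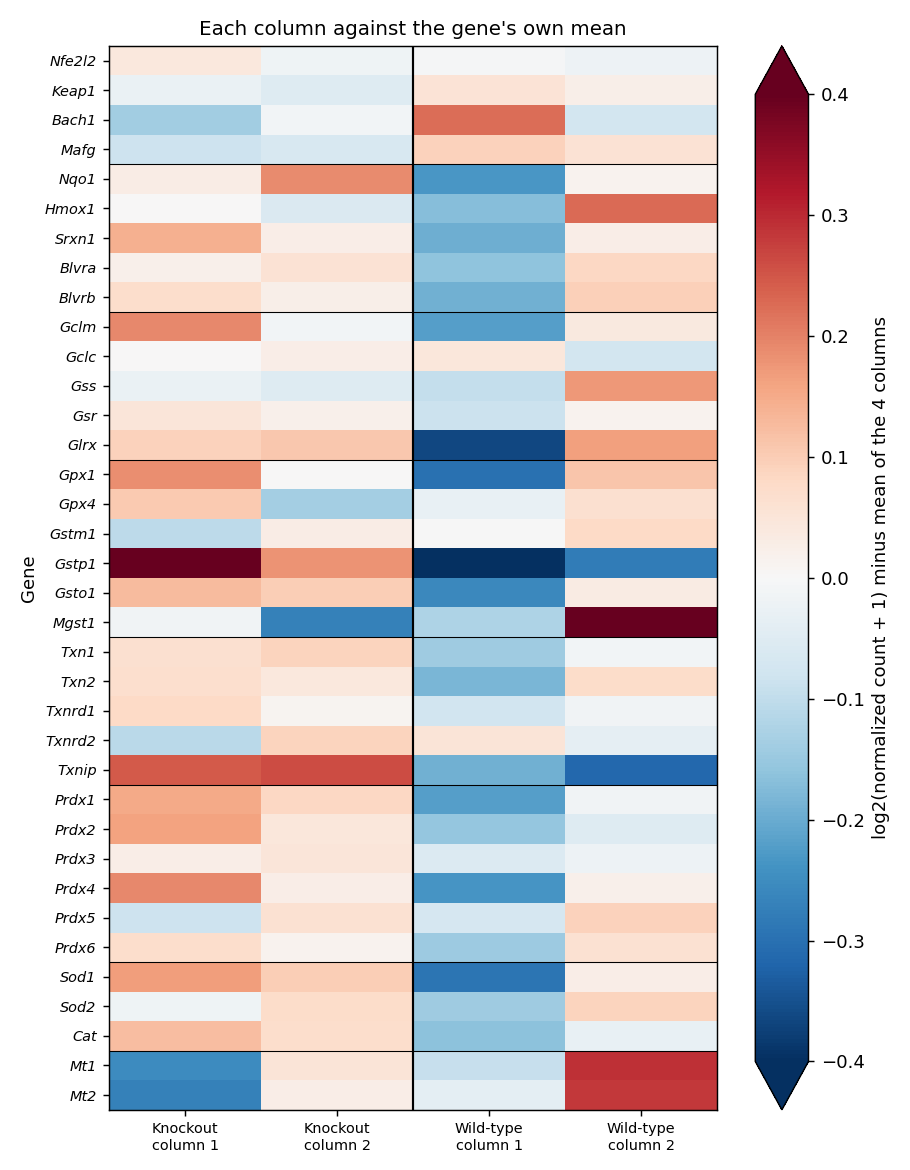
For each gene (rows, grouped by role) and column, log2(normalized count + 1) minus the gene's mean over the 4 columns, with red above and blue below that mean and colours ending at 0.4 either way. Wild-type column 1 is blue for most enzymes, with 23 of 36 genes lowest there, while Txnip is red in both knockout columns and blue in both wild-type columns.

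Wild-type column 1 was below wild-type column 2 for 29 of the 36 genes, against 50.1% of all genes tested. The median log2 difference, column 1 minus column 2, was -0.21 for the 36 genes in wild type, and 0.03 in the knockout. Over all genes tested these medians were -0.00016 in wild type and 0.0091 in the knockout. Summed levels of other lists were also lower in wild-type column 1 than in column 2, at 2153883 and 2480160 normalized counts for further NRF2 targets and 120070 and 130868 for further glutathione enzymes. Macrophage markers did likewise, at 1130043 in column 1 and 1226859 in column 2, whereas metal-response genes summed to 90612 in column 1 and 88881 in column 2. Fth1 alone made up most of the sums of the further NRF2 targets, at 1654319 in wild-type column 1 and 1919979 in column 2. For 25 of the 36 genes the gap between the wild-type columns exceeded the difference between the genotype means. That count was not made over all genes tested, so it does not set the 36 genes apart. The transcripts of the 36 genes were short, with a median of 1516 bases against 2828 over the genes tested, and their median GC content was 50.6% against 50.3%. With each column's trend in GC content and transcript length removed, the median log2 ratio of the set was 0.03 and that of Txnip 0.48, still called (limma adjusted p = 0.00816) beside 1.55% of all genes. Whether transcript length plays a part in the low column was not tested beyond that.

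For the 35 genes that were not called, the precision limits what can be said. The median half-width of the 95% interval over the 36 genes was 0.19 on the log2 scale, a factor of 1.14, and apart from Gstp1 the log2 ratios that were not called lay between -0.28 and 0.27. Differences of that size are not shown to be absent. In these bulk libraries, fewer cells of a type and less RNA per cell cannot be told apart.

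Calls by limma among other genes of the pathway were few. Of 32 further NRF2 target genes, 26 had enough reads, and Cd36, a fatty acid receptor, rose (log2 ratio 0.44, limma adjusted p = 0.014) while 25 did not pass. The Cd36 call was lost without wild-type column 1 (0.39, limma adjusted p = 0.128), without knockout column 1 (0.32, limma adjusted p = 0.268) and with GC and length trends removed (0.27, limma adjusted p = 0.0937). edgeR called 1 of these 26 genes and DESeq2 called 3. Among those, the cystine transporter Slc7a11 had 24584 and 25859 normalized counts in the knockout columns and 20585 and 22202 in the wild-type columns, and did not pass (log2 ratio 0.24, limma adjusted p = 0.0834). Osgin1 (0.03), the light ferritin chain Ftl1 (0.17) and the heavy chain Fth1 (0.06) did not pass. None of 14 further NRF2 regulators, 22 glutathione enzymes, 17 NADPH-supplying enzymes, 14 superoxide and heme genes or 10 metal-response genes tested was called, although 3, 3, 2, 1 and 3 of them had an unadjusted limma p under 0.05. By edgeR none of these was called, and DESeq2 called 1 of the glutathione enzymes and 1 of the metal-response genes. Of 23 thioredoxin-fold and repair genes, the disulfide isomerases Pdia3 (0.36) and Pdia4 (0.33) rose, the stress-induced Sesn2 (-0.48) fell, and 20 did not pass. Among these 23 genes edgeR called 2 and DESeq2 called 5. All 3 calls were lost without wild-type column 1, where the log2 ratios were 0.29 for Pdia3, 0.21 for Pdia4 and -0.35 for Sesn2 (limma adjusted p = 0.185, 0.246 and 0.185 in that order) and 0.163% of all genes were called. They were also lost without knockout column 1, where the ratios were 0.29, 0.28 and -0.39 (limma adjusted p = 0.403, 0.394 and 0.262) and 0.179% of all genes were called. With GC and length trends removed the ratios were 0.30, 0.27 and -0.34 (limma adjusted p = 0.0611, 0.0833 and 0.0708). Without knockout column 2 the ratios of Pdia3 and Pdia4 were 0.42 and 0.38 (limma adjusted p = 0.0938 and 0.115).

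Among 19 genes of selenium handling, selenoproteins and their synthesis factors included, 2 rose, none fell and 17 did not pass. Selenok, a selenoprotein of the endoplasmic reticulum, had 9626 and 9328 normalized counts in the knockout columns and 6749 and 7691 in the wild-type columns. Both knockout columns lay above both wild-type columns (log2 ratio 0.40, SE 0.08, limma adjusted p = 0.0179). Selenot, another selenoprotein of that compartment, had 20680 and 21145 in the knockout columns and 17105 and 17079 in the wild-type columns, again without overlap (log2 ratio 0.29, SE 0.07, limma adjusted p = 0.0335). By edgeR 2 of the 19 were called and by DESeq2 3. Without knockout column 1 the log2 ratios stayed at 0.37 for Selenok and 0.31 for Selenot but were not called (limma adjusted p = 0.221 and 0.273), nor were they without knockout column 2 (0.42 and 0.27, limma adjusted p = 0.0686 and 0.2) or wild-type column 1 (0.30 and 0.29, limma adjusted p = 0.122 and 0.119). With GC and length trends removed the ratio of Selenot was 0.15 and was not called (limma adjusted p = 0.251). The selenoproteins among the 36 genes, Gpx1, Gpx4, Txnrd1 and Txnrd2, are not in that list; their log2 ratios ranged from -0.03 to 0.19 and were not called.

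Markers of other cells moved with genotype as well. Of 8 dendritic cell markers, 5 had enough reads and 3 rose (Xcr1, Ccr7 and Ccl22). Over all genes tested, 1.67% were called higher. Of the 5 markers edgeR called 3 and DESeq2 called 2, and these calls were not followed through the other settings. Clec9a (log2 ratio 0.18) did not pass, nor did Batf3, a factor of the dendritic lineage, which had 55.5 and 52.9 normalized counts in the knockout columns and 94.1 and 101.8 in the wild-type columns (log2 ratio -0.84, limma adjusted p = 0.168). Cd209a was at 0 in every column, and Flt3 and Zbtb46 had at most 12 reads in a column. The summed level of the 8 markers was 57806 and 69427 normalized counts in the knockout columns and 50626 and 41444 in the wild-type columns, so the columns did not overlap. Ccl22 made up most of each sum, at 44292 and 55467 in the knockout columns and 40794 and 32385 in the wild-type columns. Of 14 stromal markers, 11 had enough reads and 2 fell (Col1a1 and Col1a2; 5 were called by edgeR and 0 by DESeq2), Col1a2 being at 0 in both knockout columns; the summed level was 1499 and 1581 in the knockout columns and 2113 and 2047 in the wild-type columns. Among the macrophage markers, Itgam and Mertk fell, and the 14 markers had a summed level of 1229065 and 1241414 in the knockout columns and 1130043 and 1226859 in the wild-type columns. Of 3 neutrophil markers with enough reads out of 7 in the table, Csf3r fell, and the summed level was 2936 and 3252 in the knockout columns and 5412 and 4390 in the wild-type columns. Most of each neutrophil sum was Csf3r, at 2602 and 2947 in the knockout columns and 5113 and 4003 in the wild-type columns. No marker of T, NK and B cells, of erythroid cells and megakaryocytes, or of mast cells and basophils was called. The part of these cell markers in the Txnip result was not tested.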

How the data were processed

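Libraries were made with a directional mRNA kit, per the labels' protocols. The deposited table gives a normalized signal per gene and column, made by the authors from counts; every value (100%) was a whole multiple of a column's step within 0.01 reads, so reads were recovered. Counts up to 100 were even in 67.3% to 69.5% of cases, so the recovered reads may not all be independent. The submitters' processing notes name mm10 and StringTie 1.3.044; the other steps, aligner and counter included, are not stated. The 2 columns per genotype were matched to the 2 samples by their names, those lacking KO being wild type. A row with no gene name (0.0272% to 0.0366% of each column) was dropped, and 12872 genes reaching 20 reads somewhere were tested, all 36 members included.

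Differences are knockout minus wild type on log2(normalized count + 1), which understates changes of low genes; limma 3.58.1 had 2 residual and 12.2 prior degrees of freedom. Recovered reads were also tested with edgeR 4.0.16 and DESeq2 1.42.0, which gave 34 members an adjusted p. Other alternatives were a pseudocount of 0.1, centring, TMM scaling, other filters, GC and length trends removed, a block, and each column left out, a lone column being assumed to vary like the other genotype. The fits were tested on simulated data. Lengths came from GENCODE vM21 and promoters from RefSeq GRCm38.p6. R 4.3.3 and Python 3.11.15 were used. The members and lists were chosen with earlier results of these data known. Every member is named; values by column go to Nfe2l2, Keap1, Mt1, Mt2, members with an unadjusted p under 0.05 and the 10 largest ratios; the largest ratios, called genes and some others of each further list are named.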

Additional observations from a re-analysis of the deposited data

How the results depend on the processing

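Txnip kept its direction in all 13 alternatives and its call in 12, and 31 of the 36 genes were called in none. Calls among the 36 genes numbered 1, against 2 with the block and 0 to 5 with a column left out, where genes with an unadjusted p under 0.05 numbered 2 to 19 and the median log2 ratio was 0.0094 to 0.18. Over all genes, 375 were called (215 higher, 160 lower). DESeq2 called 341 higher; no filter gave 222 (122 higher, 100 lower); removing GC and length trends gave 199 (98 higher, 101 lower); leaving out a column gave 21 to 620 (14 to 355 higher, 3 to 265 lower). Calls in the further lists numbered 15, 7 after trend removal and 2 to 22 with a column left out. The column number as a replicate block gave 602 calls, 280 of them lower, and added Sod1 and Arrdc4 to those named; equally numbered columns did not deviate together (correlation -0.03 across genes), so they share only a number.

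Trend removal changed the sign of uncalled log2 ratios for Nfe2l2 (-0.090), Keap1 (0.053), Blvra (-0.026), Txnrd2 (0.0098) and Prdx3 (-0.062). With a column left out, ranges crossed 0 for Nfe2l2 (-0.0044 to 0.053), Hmox1 (-0.25 to 0.14), Blvra (-0.046 to 0.20), Blvrb (-0.049 to 0.24), Gclc (-0.030 to 0.087), Gss (-0.21 to 0.058), Glrx (-0.062 to 0.47), Gpx1 (-0.017 to 0.39), Gpx4 (-0.15 to 0.086), Txn2 (-0.019 to 0.24), Txnrd2 (-0.12 to 0.081), Prdx5 (-0.10 to 0.057), Prdx6 (-0.019 to 0.19) and Sod2 (-0.062 to 0.17). The cause was not tested. Precision is limited by 2 columns per genotype.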
